A study of Mus musculus with 6 samples.

Results

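Core cardiac transcription factors are described here in cultured cardiomyocytes of newborn mice with and without deletion of the glucocorticoid receptor. The 10 genes are Gata4, Gata6, Nkx2-5, Tbx5, Tbx20, Hand2, Mef2a, Mef2c, Irx4 and Meis1, found by symbol among 52550 Ensembl genes. The rule goes by name and uses no measured value. The comparison was of 3 control libraries with 3 GR-cKO libraries, the latter from mice with a cardiomyocyte-specific deletion of the glucocorticoid receptor. Hearts were taken on postnatal day 1, and cardiomyocytes were purified by magnetic sorting and grown at first with serum (5% from horse and 10% fetal bovine). From 48 hours on, both groups were kept without serum for 24 hours, and the labels list no added agent for either. The labels name neither the Cre driver, nor the alleles of the controls, nor the number of animals behind a library, so the p-values reflect library-to-library spread, part of which may be technical.

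The heart is built under a small set of DNA-binding proteins that switch on muscle genes together. GATA zinc-finger proteins, the homeodomain protein Nkx2-5, T-box proteins, the basic helix-loop-helix protein Hand2 and MEF2 proteins bind neighbouring sites and each other, and several control one another's genes. Iroquois and MEIS homeodomain proteins refine the programme, Irx4 by marking ventricular muscle and Meis1 by restraining division of cardiomyocytes after birth. Most of these genes are also active in other heart cells, such as epicardial, endocardial or fibroblast cells.

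The libraries held 19371508 to 22583596 gene counts, which were tags from the 3' ends of messenger RNA. Levels are given in CPM, a gene's share of its library's gene counts scaled to a common total by edgeR's TMM factors. Nr3c1, which encodes the deleted receptor, ranged over 68.1 to 73.8 CPM in the controls, with 42.7 to 46.1 CPM in the GR-cKO libraries. Which exon was deleted is not in the labels, so this tag need not measure the deletion. Xist, expressed from the inactive X chromosome of females, ranged over 271 to 292 CPM in the controls and reached at most 0.0995 CPM in GR-cKO, so sex and genotype cannot be told apart in these libraries. The 10 factor genes are autosomal, which does not set sex and genotype apart for them. The labelled cell type was checked on muscle markers such as cardiac troponin Tnnt2, which was abundant in both genotypes (controls 8243 ± 124 CPM, GR-cKO 9155 ± 216 CPM; SD, n = 3 each).

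Among the factors, Tbx5, Gata6 and Hand2 were lower in GR-cKO and none was higher. This is 3 of 10 genes called in either direction by edgeR's quasi-likelihood test with an adjusted p below 0.05, where 14.8% of the 14386 genes tested were called, 7.63% higher and 7.19% lower. At an unadjusted p under 0.05 the test gave 1 factor higher and 4 lower, where 26.1% of all genes tested passed, 13.1% higher and 13% lower. DESeq2 and limma-voom each also called 0 higher and 3 lower. For 5 of the 10 factors the genotypes did not overlap, against 29.9% of all genes tested. The median log2 fold change, GR-cKO over control, was -0.11 over the factors and -0.0069 over all genes tested. All 10 had enough counts to be tested, with 229 to 9360 counts in a library, so none passed the filter through one group alone.

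**Figure D1:**
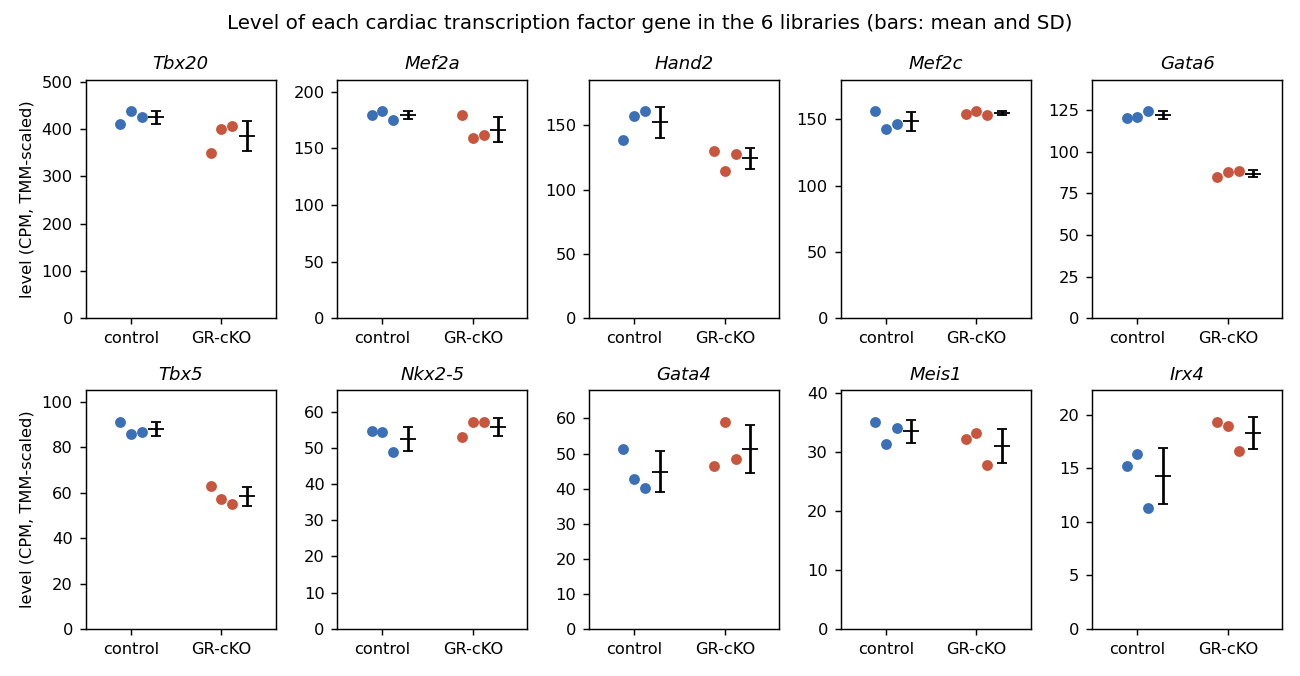
Level of each factor gene in CPM (vertical axis, from 0) in the 3 control and 3 GR-cKO libraries, 1 point per library, with the mean and SD as a bar beside each group; genes are ordered by their control mean. The control and GR-cKO points are apart for Gata6 and Tbx5, with GR-cKO lower, and less so for Hand2, Tbx20 and Irx4.

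Tbx5 is the T-box factor of the atria and left ventricle whose loss in people causes heart and hand defects. Its gene (ENSMUSG00000018263, GRCm38 chromosome 5, 119832668 to 119885219, plus strand) stood at 91.4, 85.9 and 86.9 CPM in the control libraries and 63.1, 57.2 and 55.1 CPM in the GR-cKO libraries. The lowest control library lay well above the highest GR-cKO library. The gene was 1.51-fold lower in GR-cKO, a log2 fold change of -0.59 ± 0.08 (SE; edgeR, adjusted p = 1.46e-05).

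Tbx20, the other T-box factor of the set, is needed for growth of heart muscle and also acts in the endocardium. Its gene (ENSMUSG00000031965, chromosome 9, 24718138 to 24774303, minus strand) was at 411, 438 and 426 CPM in control and at 348, 399 and 406 CPM in GR-cKO. The groups did not overlap, but GR-cKO replicates 2 and 3 lay close to control replicate 1. The log2 fold change of -0.14 (95% interval -0.29 to -0.0030) did not pass (edgeR, adjusted p = 0.18).

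Gata6 and Gata4 encode the GATA factors of heart muscle, which overlap in function and together are needed for heart formation. Gata6 (ENSMUSG00000005836, chromosome 18, 11052064 to 11085635, plus strand) stood at 120.4, 121 and 125 CPM in control and 84.5, 87.7 and 88.3 CPM in GR-cKO. Each group spanned a few CPM and the groups were far apart. Gata6 was 1.4-fold lower, with a log2 fold change of -0.49 ± 0.07 (SE; edgeR, adjusted p = 3.81e-05). Gata4 (ENSMUSG00000021944, chromosome 14, 63198922 to 63271692, minus strand) was at 51.3, 42.9 and 40.2 CPM in control and 46.4, 59.1 and 48.5 CPM in GR-cKO. Its groups overlapped, and GR-cKO replicate 2 was the highest of the 6. The log2 fold change was 0.20, with a 95% interval of -0.03 to 0.42 (edgeR, adjusted p = 0.278), and it was 0.08 without GR-cKO replicate 2 and 0.30 without control replicate 1.

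A ratio of counts within 1 library does not depend on how libraries are scaled to each other. Gata6 counts were 2.34, 2.81 and 3.1 times the Gata4 counts in control and 1.82, 1.48 and 1.82 times in GR-cKO. All GR-cKO libraries lay below all control libraries, and the mean log2 ratio fell from 1.45 ± 0.20 to 0.77 ± 0.17 (SD, n = 3 each; two-sided exact permutation test, p = 0.1, which is the lowest p possible with 3 libraries a group; adjusted over 4 ratios, 0.133). Tbx20 counts were 4.49, 5.1 and 4.9 times those of Tbx5 in control and 5.52, 6.97 and 7.37 times in GR-cKO, again without overlap (exact permutation p = 0.1, adjusted 0.133). No ratio could have passed a threshold of 0.05 in this design.

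**Figure D2:**
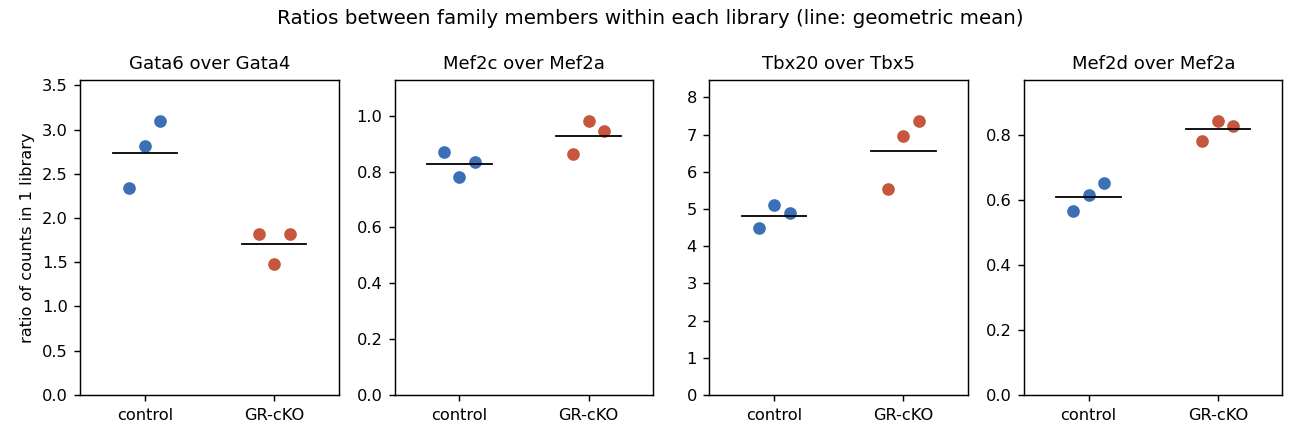
Ratio of the counts of 2 genes of one family within each library (vertical axis, no unit, from 0), 1 point per library, with the geometric mean of each group as a line. Gata6 over Gata4 is lower in all GR-cKO libraries, Tbx20 over Tbx5 and Mef2d over Mef2a are higher in all of them, and Mef2c over Mef2a overlaps between groups.

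Hand2 encodes a basic helix-loop-helix factor of the right ventricle, the outflow tract and the sympathetic neurons. The gene (ENSMUSG00000038193, chromosome 8, 57320983 to 57324633, plus strand) was at 139, 157 and 161 CPM in control and 130.1, 115 and 128 CPM in GR-cKO. The groups did not overlap, although control replicate 1 and GR-cKO replicate 1 were close. Hand2 was 1.23-fold lower, a log2 fold change of -0.29 ± 0.08 (SE; edgeR, adjusted p = 0.0112). This call was lost without control replicate 2 (edgeR, adjusted p = 0.0689), control replicate 3 (0.0629) or GR-cKO replicate 2 (0.0968), and with scaling by the ERCC spike-ins (0.246), where the log2 fold change was -0.20. Hand2 is overlapped on the other strand by the noncoding gene Hand2os1, with 71.1 ± 4.23 CPM in the controls and 76.3 ± 0.924 CPM in GR-cKO (adjusted p = 0.483). Since no source used here gives the strand setting of the counting, reads of the pair may not be fully separated. The same holds for Gata6 and the noncoding gene 1010001N08Rik on its other strand (6.70 ± 2.33 and 4.27 ± 1.57 CPM, edgeR, adjusted p = 0.159). Mef2a and Meis1 also have overlapping genes, on both strands.

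Promoter sequences from RefSeq (GRCm38.p6) matched 7 of the 10 factors, Gata4, Gata6 and Tbx5 not among them. Shown are the 250 bases before the start for the 3 matched factors whose groups did not overlap, read 5′ to 3′ on the gene's strand, with matches to 5 short motifs in capitals. The windows are chr8:57320733-57320982 for Hand2 (plus strand), chr9:24774304-24774553 for Tbx20 (minus strand) and chr13:73260247-73260496 for Irx4 (plus strand).
Hand2: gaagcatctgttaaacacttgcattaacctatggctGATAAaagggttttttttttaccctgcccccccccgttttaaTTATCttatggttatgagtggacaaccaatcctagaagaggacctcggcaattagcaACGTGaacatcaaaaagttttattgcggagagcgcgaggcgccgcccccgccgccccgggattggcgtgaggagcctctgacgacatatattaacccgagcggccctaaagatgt
Tbx20: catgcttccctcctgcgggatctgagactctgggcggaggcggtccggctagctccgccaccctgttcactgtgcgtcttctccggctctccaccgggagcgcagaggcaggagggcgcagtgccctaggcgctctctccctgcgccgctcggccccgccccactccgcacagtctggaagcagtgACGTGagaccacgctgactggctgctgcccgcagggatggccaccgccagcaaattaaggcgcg
Irx4: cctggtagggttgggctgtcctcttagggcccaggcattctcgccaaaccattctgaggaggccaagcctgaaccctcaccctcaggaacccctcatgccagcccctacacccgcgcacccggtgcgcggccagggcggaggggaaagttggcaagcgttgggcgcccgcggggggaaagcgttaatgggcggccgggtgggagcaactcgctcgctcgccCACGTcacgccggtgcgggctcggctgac

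The motifs searched on both strands were the glucocorticoid receptor half-site AGAACA, the GATA core GATAA, the T-box half-site AGGTGT, the MEF2 core (its fixed outer letters around an open centre) and the core of hypoxia-inducible factor sites, ACGTG. The Hand2 window held GATAA matches at -214 to -210 and -172 to -168 from the start and an ACGTG match at -115 to -111. The Tbx20 and Irx4 windows each held 1 ACGTG match, at -64 to -60 and -29 to -25. Of 32851 such windows of all genes, 22.6% held GATAA, 16.6% ACGTG, 16.1% AGAACA, 11.8% AGGTGT and 3.2% the MEF2 core. None of these 3 windows held AGAACA, which says nothing about sites elsewhere. The windows of Nkx2-5, Mef2a and Meis1 held none of these 5 motifs. RefSeq starts can differ from the gene coordinates given here. The Nkx2-5 window (chr17:26841566-26841815) lay inside the span given for the gene, and those of Irx4 and Meis1 overlapped the start of theirs. Of the 3 Mef2c starts, start 1 had none of the 5 in its window, start 2 had 2 GATAA and 1 AGGTGT match, and start 3 had 1 AGAACA match. The E-box CANNTG, bound by basic helix-loop-helix proteins, was also searched and is not in capitals. It was in 66.2% of all windows, with 2 matches for Hand2, 1 each for Nkx2-5 and Meis1, 2 at start 1 and 1 at start 3 of Mef2c, and none for Tbx20, Irx4 or Mef2a. These are matches of letters, and none was tested for binding.

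MEF2 proteins bind the promoters of many muscle genes and are held back by class IIa histone deacetylases. Mef2a (ENSMUSG00000030557, chromosome 7, 67231163 to 67372858, minus strand) was at 179.8, 183 and 175 CPM in control and 179, 159 and 162 CPM in GR-cKO. The GR-cKO replicate 1 library was as high as the controls. Mef2c (ENSMUSG00000005583, chromosome 13, 83504034 to 83667080, plus strand) was at 156, 143 and 146 CPM in control and 154, 156 and 153 CPM in GR-cKO. The groups overlapped through control replicate 1, while control replicates 2 and 3 lay below every GR-cKO library. The log2 fold changes were -0.11 (95% interval -0.25 to 0.04; edgeR, adjusted p = 0.375) and 0.06 (-0.09 to 0.20; adjusted p = 0.687). Mef2c counts were 0.87, 0.781 and 0.836 times those of Mef2a in control and 0.862, 0.982 and 0.948 times in GR-cKO (exact permutation p = 0.2).

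The third MEF2 gene of the heart, Mef2d, was the one gene of these families that rose. It stood at 102, 112 and 114 CPM in control and 139.7, 134 and 133.7 CPM in GR-cKO. Every GR-cKO library was above every control library, with a log2 fold change of 0.31 ± 0.07 (SE; edgeR, adjusted p = 0.00504). Within libraries Mef2d counts were 0.567 to 0.652 times those of Mef2a in control and 0.78 to 0.843 times in GR-cKO (exact permutation p = 0.1, adjusted 0.133). Mef2b was listed at 0 in all libraries.

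Nkx2-5, the homeodomain factor that marks heart muscle from its earliest stage, was close to level. The gene (ENSMUSG00000015579, chromosome 17, 26838664 to 26845009, minus strand) was at 54.6, 54.3 and 48.7 CPM in control and 53.0, 57.3 and 57.2 CPM in GR-cKO. The groups overlapped and the log2 fold change was 0.09 (95% interval -0.10 to 0.27; edgeR, adjusted p = 0.616).

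Irx4, the Iroquois factor of ventricular muscle, had the lowest level of the set and the widest relative spread in control. The gene (ENSMUSG00000021604, chromosome 13, 73260479 to 73269608, plus strand) was at 15.2, 16.3 and 11.3 CPM in control and 19.4, 19.0 and 16.6 CPM in GR-cKO. All GR-cKO libraries were above all controls, but the lowest of them was close to control replicate 2. Its log2 fold change of 0.36 (95% interval 0.04 to 0.67) did not pass over all genes (edgeR, adjusted p = 0.125), and it was 0.22 without control replicate 3.

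Meis1, a homeodomain factor known for restraining the cell cycle in postnatal heart muscle, overlapped between groups. The gene (ENSMUSG00000020160, chromosome 11, 18879817 to 19018985, minus strand) was at 35.2, 31.4 and 34.1 CPM in control and 32.2, 33.1 and 27.8 CPM in GR-cKO. The log2 fold change was -0.11 (95% interval -0.34 to 0.11; edgeR, adjusted p = 0.59). Its relative Meis2 was at 68.8 ± 5.4 and 64.7 ± 2.59 CPM.

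**Figure D3:**
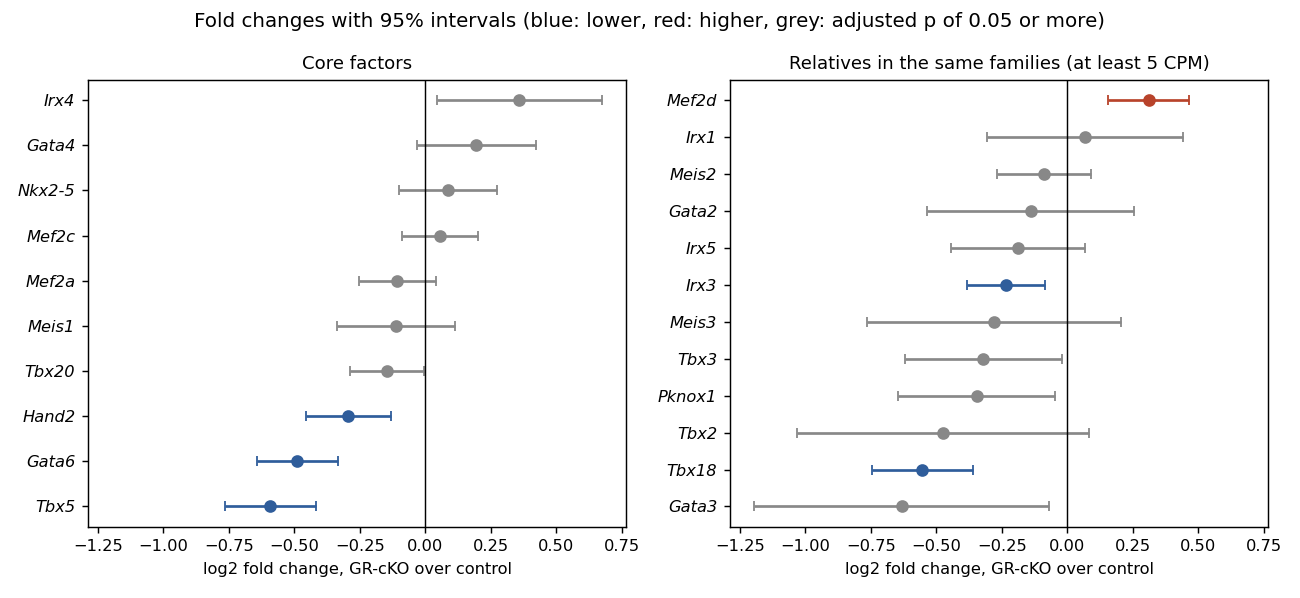
Log2 fold change of GR-cKO over control (horizontal axis) with its 95% interval for the 10 core factors (left) and for their relatives whose higher group mean reached 5 CPM (right). Blue marks genes that were lower and red those that were higher at an adjusted p below 0.05 (edgeR): Tbx5, Gata6, Hand2, Tbx18 and Irx3 are blue and Mef2d is red.

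The order of the levels was nearly the same in both genotypes. A 3' tag library gives about 1 tag per transcript whatever its length, so levels can be set side by side without dividing by length, although the efficiency of tagging can differ between genes. Tbx20 led in both (control mean 425 CPM, GR-cKO mean 384 CPM), above 97.9% and 97.5% of tested genes. It was followed by Mef2a, Hand2, Mef2c, Gata6, Tbx5, Nkx2-5, Gata4, Meis1 and Irx4 in control. In GR-cKO Mef2c stood above Hand2 and the other places were unchanged. In control the neighbours Hand2 and Mef2c overlapped between libraries, as did Nkx2-5 and Gata4. In GR-cKO Tbx5 overlapped Nkx2-5, from which it was separate in control, and Nkx2-5 overlapped Gata4.

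By Pearson correlation of log2 CPM over the 6 libraries, the genes most like Tbx5 among 9878 candidates of at least 5 mean CPM were Pkp4 (r = 0.998), a desmosome-associated protein, Hmmr (0.998), a spindle protein, and Diaph3 (0.997), a formin. Much of this likeness is the shared gap between the groups. Pkp4 was at 126 ± 2.04 and 104 ± 2.91 CPM, Hmmr at 27.0 ± 1.47 and 10.8 ± 1.98 CPM, and Diaph3 at 29.2 ± 1.2 and 12.9 ± 1.8 CPM, controls first (SD, n = 3 each).

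Of 23 relatives from the same families 16 could be tested. Of these 2 fell and 1 rose, where 7.19% and 7.63% of all genes tested did, with a median log2 fold change of -0.26. The number that fell was 1 without control replicate 1 or 2 or without any 1 of the GR-cKO replicates. Without control replicate 3 it was 3. Tbx18, a T-box gene of the epicardium and sinus node, was at 67.9, 66.2 and 62.3 CPM in control and 49.0, 43.7 and 41.2 CPM in GR-cKO, with no overlap (log2 fold change -0.55 ± 0.09, SE; edgeR, adjusted p = 0.000122). Irx3, an Iroquois gene of the conduction system, was at 123 ± 0.812 and 105 ± 1.56 CPM (-0.23 ± 0.07; edgeR, adjusted p = 0.0294). The Irx3 call was lost on leaving out any 1 of the 6 libraries, at adjusted p values of 0.0638 to 0.0902, and with ERCC scaling (0.392). Gata1, Nkx2-6 and Nkx2-3 were listed at 0 in all libraries, and Hand1 and Gata5 were scarce, at 1.29 ± 0.588 and 0.938 ± 0.65 CPM and at 1.19 ± 0.604 and 1.1 ± 0.176 CPM.

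Partners and regulators of these factors moved in both directions. Of 29 listed genes, all tested, 5 rose and 3 fell, where 7.63% and 7.19% of all genes tested did. The median log2 fold change was -0.08, and 1 gene of the list fell without GR-cKO replicate 2. The class IIa deacetylases Hdac9 and Hdac5, which bind MEF2 proteins and repress their targets, rose. Hdac9 was at 18.2, 15.9 and 20.3 CPM in control and 33.1, 32.9 and 26.9 CPM in GR-cKO (log2 fold change 0.78 ± 0.13, SE; edgeR, adjusted p = 0.000104). Hdac5 was at 60.8 ± 0.977 and 83.3 ± 6.53 CPM (adjusted p = 0.000406). The remaining class IIa genes did not pass, with Hdac4 at 34.1 ± 4.03 and 32.3 ± 4.29 CPM and Hdac7 at 153 ± 11.3 and 169 ± 2.35 CPM. Xirp1, an actin-binding protein gene regulated by MEF2, rose from 35.6 ± 3.34 to 54.1 ± 7.04 CPM (edgeR, adjusted p = 0.000265). It is counted among the 5 that rose, although it is a target of MEF2 rather than a partner.

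Hopx, a homeodomain protein that lacks DNA binding and restrains serum response factor, fell from 65.4 ± 4.46 to 37.9 ± 5.65 CPM (n = 3 each), with a log2 fold change of -0.79 ± 0.10 (SE; edgeR, adjusted p = 6.3e-06). Serum response factor itself, Srf, was at 202 ± 29.2 and 215 ± 22.7 CPM, and its coactivator Myocd at 56.2 ± 2.05 and 48.9 ± 2.62 CPM. Neither passed. Named after their values were seen, other calls in this list included Nfatc4 (log2 fold change 0.47), Tead1 (-0.30) and Mrtfa (-0.39). The GATA cofactors Zfpm1 (42.8 ± 5.02 and 35.6 ± 0.252 CPM) and Zfpm2 (10.0 ± 1.07 and 9.96 ± 2.52 CPM) did not pass.

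Genes known to lie downstream of these factors changed in both directions. Of 36 such genes 19 rose and 10 fell, where 7.63% and 7.19% of all genes tested did, with a median log2 fold change of 0.17. The stress-responsive muscle genes Xirp2 and Csrp3 rose 4.99-fold and 2.07-fold, and cardiac actin Actc1 rose from 6337 ± 98.2 to 9791 ± 207 CPM. Sarcolipin, Sln, an atrial inhibitor of the calcium pump, fell from 317 ± 17.9 to 175 ± 10.4 CPM. Among the best-known targets of Tbx5 and Gata4, named after their values were seen, Nppa stood at 13607 ± 140 and 18211 ± 465 CPM and Gja5 at 6.24 ± 0.603 and 2.7 ± 0.247 CPM, so one was higher and the other lower where Tbx5 was lower. This list shares many genes with sarcomere and calcium lists already known to differ in these data and is no independent evidence about the factors.

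Of 16 cell cycle genes linked to Meis1 or Gata4 in the heart, 10 fell and 1, the inhibitor Cdkn1a, rose. Over all genes tested 7.19% fell and 7.63% rose. The median log2 fold change of the 16 was -0.55. Top2a (165 ± 15.5 and 75.1 ± 4.54 CPM), Cdk1 (215 ± 10.6 and 113 ± 8.24 CPM), Ccnd1 (446 ± 28.3 and 253 ± 27.7 CPM) and Ccna2 (45.0 ± 1.27 and 22.6 ± 3.63 CPM) had the smallest p among those that fell. Not all that fell promote division: the inhibitors Cdkn1c (34.3 ± 3.52 and 20.1 ± 1.2 CPM, log2 fold change -0.77) and Cdkn2c (7.39 ± 0.529 and 3.33 ± 0.388 CPM) fell too. These inhibitors were named after their values were seen. Cdkn2a and Cdkn2b, chosen likewise, were at 8.53 ± 1.45 and 7.15 ± 1.57 CPM and at 11.6 ± 1.1 and 11.97 ± 0.446 CPM and did not pass. Meis1 and Gata4 themselves were not called (edgeR, adjusted p = 0.59 and 0.278). The list holds general genes of cell division, such as Mki67, and a tie of its changes to these factors was not tested.

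Markers of heart cell types moved beside the factors, and their part in the results was not tested. In these bulk samples fewer cells of a type and less RNA per cell cannot be told apart. Over all genes tested 7.63% were called higher and 7.19% lower. Of 12 atrial markers, which include Tbx5, 5 fell and 1 rose, and of 9 ventricular markers, which include Irx4, 4 rose and 3 fell. The atrial markers summed to 18040 to 18200 CPM in control and 20670 to 21810 CPM in GR-cKO. The 1 that rose, Nppa, made up most of this sum (13607 ± 140 and 18211 ± 465 CPM). The ventricular markers summed to 12320 to 13380 and 16100 to 18160 CPM. Myl3, which is also among the cardiomyocyte markers, made up most of this sum (8002 ± 556.7 and 11391 ± 1125.5 CPM). The 3 ventricular markers that fell were Hopx, Hey2 and Mpped2, with log2 fold changes of -0.79, -1.02 and -0.57. The summed level of 10 fibroblast markers was 4697 to 4955 CPM in control and 6007 to 6089 CPM in GR-cKO, with 5 higher and 1 lower. That of 10 endothelial markers was 1080 to 1114 and 1261 to 1373 CPM, with 7 higher and 2 lower. That of 8 smooth muscle and pericyte markers was 3603 to 3708 and 4230 to 4443 CPM, with 5 higher and none called lower. Such sums follow the most abundant genes, and Acta2 alone was at 3291 ± 54.8 and 3831 ± 116 CPM. Tagln, Myh11 and Kcnj8 did not pass, with log2 fold changes of -0.23, -0.60 and -0.15. Among the fibroblast markers Dcn fell (-0.37). Pdgfra (-0.27), Ddr2 (-0.25), Tcf21 (0.28) and Lum (0.22) did not pass. The 8 epicardial markers, which include Tbx18, summed to 102 to 108 CPM and 107 to 125 CPM, with 3 higher and 2 lower and a median log2 fold change of -0.46. Krt19 (8.44 ± 1.41 and 41.3 ± 3.95 CPM) and Krt8 (1.66 ± 0.751 and 11.6 ± 0.655 CPM), keratins of epithelia, rose, as did Msln, while Tbx18 and Upk3b (9.09 ± 1.1 and 4.03 ± 0.495 CPM) fell. Wt1, Upk1b and Aldh1a2 did not pass, with log2 fold changes of -0.57, -0.59 and -0.36. The 10 cardiomyocyte markers summed to 32370 to 33910 and 41440 to 44240 CPM, with 7 higher and 1 lower. Leukocyte markers were scarce, with 8 genes summing to 13.6 to 17.9 and 35.2 to 55.3 CPM. Of the 5 tested, Lyz2 and Tyrobp were called higher, and Csf1r, Cd68 and Fcer1g did not pass. Lyz2 made up most of the leukocyte sum (12.9 ± 2.25 and 40.5 ± 9.65 CPM). The 6 erythroid markers summed to at most 4.99 CPM. Of the 6 neural or Schwann cell markers, listed because sympathetic neurons express Hand2, 1 fell, and they summed to 40.6 to 44.4 and 25.8 to 30.0 CPM.

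**Figure D4:**
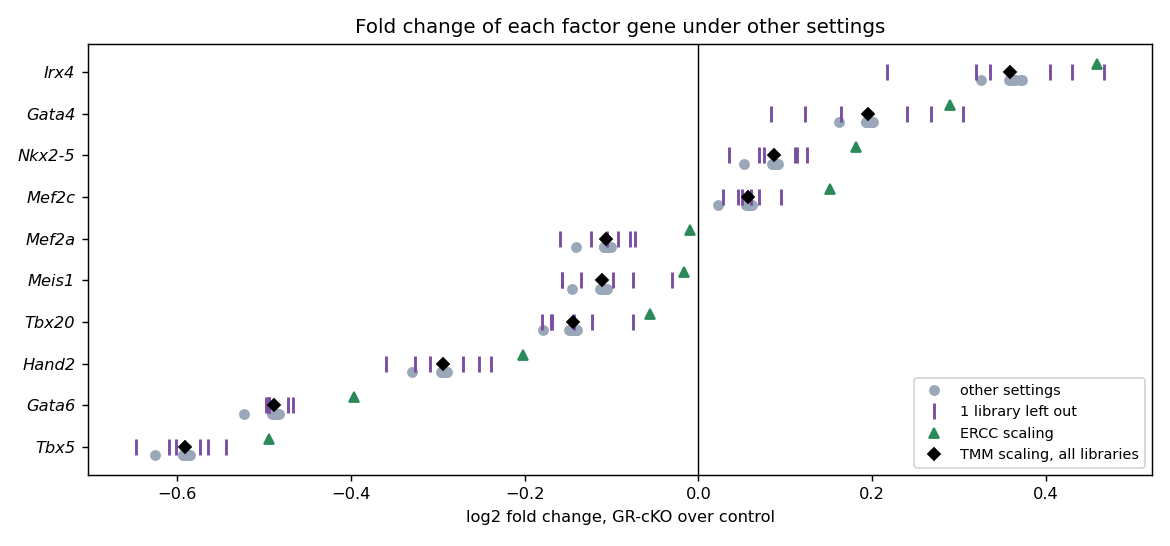
Log2 fold change of GR-cKO over control (horizontal axis) for each factor gene with TMM scaling and all libraries (black diamonds), with 1 library left out (purple ticks), with ERCC spike-in scaling (green triangles) and under the other settings (grey points). Each gene stays on one side of 0 throughout, with Tbx5 between -0.65 and -0.49 and Gata6 between -0.52 and -0.40, while ERCC scaling shifts all genes upward.

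Under 15 other settings Tbx5 and Gata6 were called lower in every one, with adjusted p values of at most 0.00147 and 0.00547, both with ERCC scaling. That scaling shifted the median of all genes from -0.0069 to 0.09 and turned the overall split of calls from 1097 higher and 1035 lower to 1355 higher and 522 lower. With 1 library left out, the log2 fold changes of Tbx20 (-0.18 to -0.08), Mef2a (-0.16 to -0.07), Meis1 (-0.16 to -0.03), Nkx2-5 (0.04 to 0.13) and Mef2c (0.03 to 0.09) kept their sign and did not pass. The directions of Mef2a and Meis1 were least certain with ERCC scaling, at log2 fold changes of -0.01 and -0.02.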

How the data were processed

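Messenger RNA was measured in 6 libraries of cultured mouse cardiomyocytes, 3 control and 3 GR-cKO, grouped by their titles. Per the labels' protocols, QuantSeq 3' FWD libraries were made from 100 ng of RNA each. The authors deposited raw counts per gene without normalization. Per the submitters' processing notes the build was GRCm38 and the tools were STAR 2.5.4a, featureCounts 1.6.2, cutadapt 1.16, bcl2fastq, DESeq2 1.18.1, FastQC 0.11.7 and MultiQC 1.5. For the annotation release, the strand setting and multiply mapped reads, nothing is given in the sources used.

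The 92 ERCC and 7 SIRV rows, 1.98% to 2.36% of counts, stayed out of library sizes and tests. Symbols and coordinates came from GENCODE M21, which matched 52403 of 52550 gene rows. A count of 0 allows up to 0.133 to 0.155 CPM (3 counts, counting error only).

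Genes were tested by quasi-likelihood in edgeR 4.0.16 under R 4.3.3 (default low-count filter, TMM factors of 0.980 to 1.02, Benjamini-Hochberg adjustment over 14386 genes, threshold 0.05). Each SE was the fold change over the root of its F statistic, and each 95% interval from that SE. On counts simulated for this comparison (14075 genes tested, 200 changed), it called 24.1% of genes changed 1.25-fold and 72.4% of those changed 1.5-fold at 10 CPM or more, and 100% at 2-fold; under 10 CPM it called 24% at 2-fold, and over all depths 62%. The split at 10 CPM was made after the overall recovery on simulated counts was seen. It called 5 of 13885 unchanged genes. Alternatives used DESeq2 1.42.0, limma 3.58.1, other scalings and filters, and each library left out.

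The genes and lists were chosen with earlier results of these data known. Named genes were the 10 factors, Nr3c1, and from each other list up to 4 with the smallest p that passed; others given as values, among them Hdac4, Hdac7, Srf, Myocd, Zfpm1, Zfpm2, Meis2, Hand1 and Gata5, were chosen after their values were seen. A single member of the partner list is not reported here.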

Additional observations from a re-analysis of the deposited data

How the results depend on the processing

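Of the 10 factors under 15 alternatives each (150 values), 146 kept their direction and their side of the threshold, 4 lost the call and none turned direction. All 4 were Hand2. The number of factors passing was 2 to 3 lower and 0 higher when 1 library was left out, and 2 lower and 0 higher with ERCC spike-in scaling. For 20 other named genes 292 of 300 values held and 8 lost the call, 7 of them Irx3 and 1 Sox9 (adjusted p = 0.0534 with ERCC scaling). Over all genes, ERCC scaling gave 522 lower in place of 1035; leaving out 1 library gave 842 to 993 higher and 726 to 889 lower. The cause was not tested. Also with ERCC scaling, 1 relative, 1 partner and 3 of the other developmental factors were lower, in place of 2, 3 and 6. The Gata6 over Gata4 difference (log2) was -0.80 to -0.59 and Tbx20 over Tbx5 0.36 to 0.57 when 1 library was left out.

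The titles number replicates 1 to 3 in both groups. Deviations of same-numbered libraries from their group means correlated at -0.000386, 0.0219 and 0.039 over genes, and not every library correlated best with its own number, so the numbers were not taken as pairs. With the replicate block, 3 factors were lower and 0 higher, and 1201 genes were higher and 1152 lower over all genes. Depth limits the relatives under 10 CPM, where the test on simulated counts missed most 2-fold changes.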

Other observations

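Other transcription factors of heart development, outside the families above, also differed. Of 29 listed 28 could be tested, and 4 rose and 6 fell, where 7.63% and 7.19% of all genes tested did. Their median log2 fold change was 0.04. Sox4, a factor of outflow tract and progenitor cells, was at 417, 404 and 426 CPM in control and 303, 316 and 317 CPM in GR-cKO, with no overlap (log2 fold change -0.41 ± 0.06, SE; edgeR, adjusted p = 3.98e-05). Sox9, a factor of valve and matrix-forming cells, fell from 211 ± 8.52 to 161 ± 13.5 CPM (edgeR, adjusted p = 0.000474). Foxm1, which drives genes of mitosis, fell from 27.8 ± 2.04 to 16.3 ± 0.626 CPM (edgeR, adjusted p = 6.34e-05). Foxo3, a forkhead factor of quiescence and stress, rose from 44.3 ± 6.07 to 62.3 ± 4.61 CPM (edgeR, adjusted p = 0.00131). The count of genes that rose was 1 without GR-cKO replicate 1 and 2 without control replicate 2 or 3.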
